A study of Ischnura elegans with 24 samples.

Results

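Gene expression was compared among the 3 northern populations of a damselfly, Ischnura elegans, labelled northern1, northern2 and northern3. They were chosen by their labels and hold 12 of the 24 libraries of the study, 4 for each population. The other 12 libraries came from 3 southern populations, labelled southern1, southern2 and southern3. Each library was made from RNA of whole bodies of male larvae in the final larval stage. Larvae of each population were divided at random after hatching over rearing at 20 or 24 °C, reared singly and fed Artemia nauplii, and they came from several mothers per population. The RNA of 3 larvae was mixed into a pool, and each population had 2 pools (a and b) at each temperature, so that 36 northern larvae were sampled. The labels name no mutation and no drug, and the groups compared differ in their population of origin. Where these populations lie is not given by the labels beyond their latitude.

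Ischnura elegans is a common pond damselfly whose larvae live in water as predators and leave it as adults. Populations of such an insect can differ in expression through inherited differences, through effects passed on by the mothers and through the conditions in which the larvae grow. Larvae of each population were reared at both temperatures, and which of these acted here was not tested. A whole-body library mixes RNA of gut, muscle, fat body, nervous tissue and cuticle, so a lower level may stand for fewer cells of a type or for less RNA per cell, which cannot be told apart.

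The measured features are contigs, stretches of transcript put together from the reads alone, which carry assembly identifiers and no gene names. Their function is therefore not given, and the tissue could not be checked against marker genes. The authors' table held 34095 contigs. After a filter on low counts and the removal of contigs with a count of 0 in 10 or more of the 24 libraries, 31096 contigs were tested. Library totals were 13698639 to 17157615 counts in northern1, 13256594 to 16127829 in northern2 and 13046281 to 16009023 in northern3. Levels are CPM, counts scaled to a common library size after normalisation, and a count of 3 was worth 0.184 to 0.282 CPM in the northern libraries. CPM is not divided by contig length, so levels are compared between populations and not between contigs. Pools came from different larvae, but whether pools shared mothers is not stated, so p-values do not reach beyond these pools. In the main fit they rest on the spread of northern and southern pools together. That spread includes departures of a population from the temperature effect of its latitude.

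Libraries of 1 population were only slightly more alike than libraries of different populations. The root mean square log2 difference over all tested contigs averaged 0.832 between the 2 pools of a population at 1 temperature (0.725 to 0.989, 6 pairs). At the same temperature it averaged 0.882 between northern1 and northern2, 0.876 between northern1 and northern3 and 0.877 between northern2 and northern3 (8 pairs each). On the second principal component, which held 13.9% of the variance, the 4 northern3 libraries lay at 31.03 to 54.7 and the other 8 at 9.65 or below. Pool a of northern2 at 24 °C stood apart at 100.96 on the first component, which held 18.5%, and at -84.21 on the second. The counts of calls in the F test and in both pairs with northern2 are given below with and without this library. The distances above, and the later look-up between temperatures for these pairs, were not repeated without it.

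**Figure D1:**
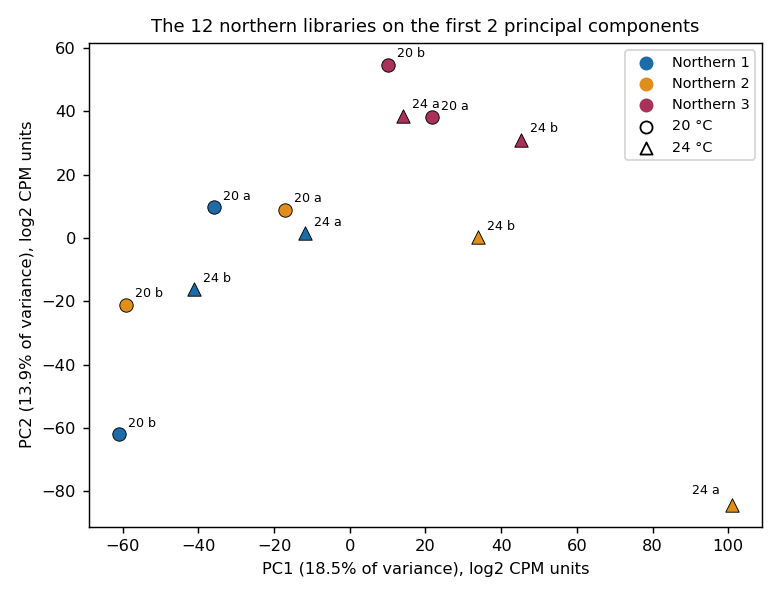
The 12 northern libraries on the first 2 principal components of log2 CPM, coloured by population, with circles for 20 °C and triangles for 24 °C and the pool letter beside each point. The northern3 libraries lie above the others on the second component, and the northern2 pool 24 a is far from all others.

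Across the 3 northern populations, 58 of the 31096 contigs (0.187%) differed in the F test, with temperature in the model (edgeR quasi-likelihood, Benjamini-Hochberg adjusted p under 0.05, the rule for every call below). Most of them were low in northern3. The lowest of the 3 means was that of northern3 in 42 of the 58, against 35.9% of all tested contigs, that of northern1 in 12 and that of northern2 in 4. The order northern1 above northern2 above northern3 was found in 38 of the 58 and in 20.38% of all tested contigs, and the opposite order in 10 and in 18.69%. Northern2 stood between the other two populations in 48 of the 58. The median distance between the highest and the lowest population mean was 2.13 on the log2 scale, against 0.36 over all tested contigs, and 52 of the 58 differed at least 2-fold. These contigs were chosen by the same values, so their size and order describe them and are not tested.

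The count of 58 depended on single libraries and on the other libraries in the fit. It was 165 without northern1 20 a, 135 without northern2 20 b, 38 and 36 without northern1 24 a and b, 9 and 27 without northern3 20 a and b, 26 without northern3 24 b, 38 without southern3 20 b, and 57 without northern2 24 a; the fit on the 12 northern libraries alone called 11.

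The calls fell mainly on the pair northern1 and northern3. In northern1, 155 contigs (0.498% of those tested) differed from northern3, of which 116 (0.373%) were higher and 39 (0.125%) lower. This count was 22 to 500 with 1 northern library left out. It was 500 without northern1 20 a, 71, 84 and 51 without northern1 20 b, 24 a and 24 b, and 22, 59 and 54 without northern3 20 a, 20 b and 24 b; the fit on the northern libraries alone called 33. No contig was called between northern1 and northern2 (0%), and 17 (0.0547%) were called between northern2 and northern3. The order of these pairs depended on the rule on zeros. With the contigs it left out kept, more were called between northern1 and northern2 than between northern2 and northern3. Over all tested contigs the typical size of the differences was similar, with a median absolute log2 difference of 0.22 for northern1 minus northern2, 0.24 for northern1 minus northern3 and 0.21 for northern2 minus northern3. Differences of at least 2-fold were seen in 5.63% of contigs for northern1 minus northern2, 7.99% for northern1 minus northern3 and 7.22% for northern2 minus northern3. The 4 libraries of both populations did not overlap in 2.89% of contigs between northern1 and northern2. Between northern1 and northern3 they did not overlap in 7.14%, with northern1 above in 3.99% and below in 3.14%. Between northern2 and northern3 the share was 4.13%, with northern2 above in 2.25% and below in 1.88%. Before adjustment, 4076 contigs (13.1%) had a p under 0.05 between northern1 and northern3 and 2682 (8.62%) between northern2 and northern3. These 3 comparisons share populations, so their counts are not independent of each other.

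The 116 contigs higher in northern1 than in northern3 differed by a median of 2.09 on the log2 scale (0.41 to 8.21). At least 2-fold differences were found in 107 and at least 4-fold differences in 60. Added up, they took 1223, 1525, 1424 and 1619 CPM in the northern1 libraries 20 a, 20 b, 24 a and 24 b. In northern2 they took 962.6, 1090, 1094 and 1164 CPM, and in northern3 434.6, 456.7, 602.4 and 492.7 CPM, in the same order of pools. Every northern1 library lay above every northern2 library, and every northern2 library above every northern3 library. The choice of contigs sets northern1 and northern3 apart and favours a place between them for northern2, so this order is a description; the same holds for the contigs lower in northern1. Contig by contig, the northern2 mean lay between the other two in 107 of the 116 and above northern1 in 9, and it was nearer to northern1 than to northern3 on the log2 scale in 103. The sum was not dominated by 1 contig, since the 3 most abundant held 31.48% of it. Over the 116 contigs the northern3 mean had a median of 0.983 CPM. In 10 of them all 4 northern3 libraries had counts of 3 or fewer, so the size of those differences is uncertain.

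The 39 contigs lower in northern1 than in northern3 differed less, by a median of -0.87 on the log2 scale (-2.73 to -0.44), and 19 of them at least 2-fold. Their summed level was 399.8, 380.6, 433.1 and 413.5 CPM in the northern1 pools 20 a, 20 b, 24 a and 24 b. It was 530.8, 468.5, 604.4 and 583.3 CPM in northern2 and 679.3, 626.9, 726.8 and 736.5 CPM in northern3. The 3 populations again did not overlap, here with northern1 lowest. The northern2 mean lay between the other two in 36 of the 39 and was nearer to northern1 in 16. The split of 116 higher to 39 lower, 74.8% higher, became 151 to 21, 87.8% higher, when library totals alone set the scale, a choice that moved the median log2 difference over all contigs to 0.119. Without northern1 20 a the split was 241 higher to 259 lower, so the excess of higher calls was not seen without that library.

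**Figure D2:**
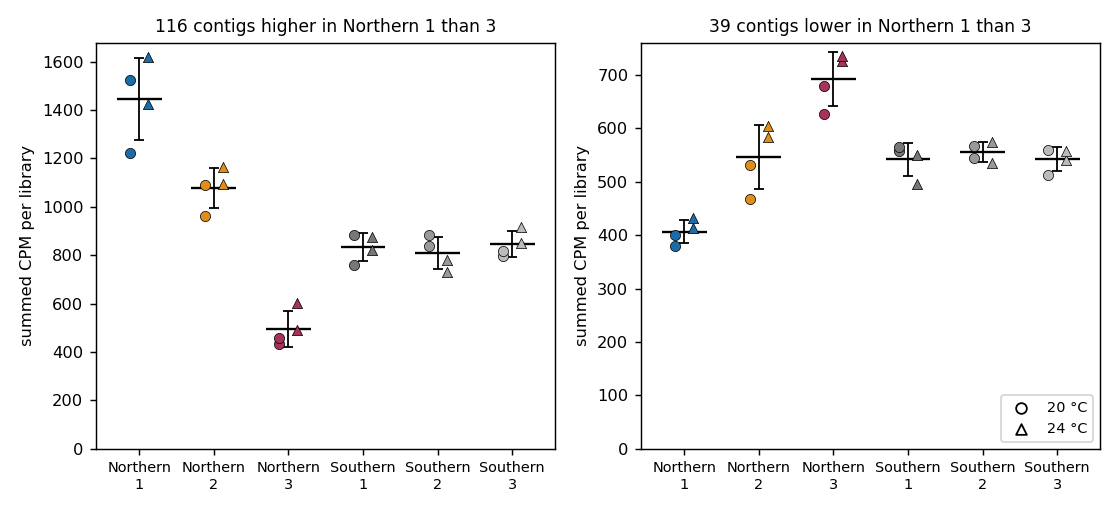
Summed CPM, per library, of the 116 contigs called higher and of the 39 called lower in northern1 than in northern3, in the 6 populations, with circles for 20 °C, triangles for 24 °C, a line at the mean of 4 libraries and error bars of 1 SD on each side. In both sets the northern2 libraries lie between those of northern1 and northern3. The southern libraries lie between 732 and 918.1 CPM for the first set and between 495.7 and 574.6 CPM for the second. They entered the choice of contigs only through the shared filter, scaling and estimate of spread.

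The southern populations give the level of these contigs in larvae that had no part in choosing them, except through the shared filter, scaling and estimate of spread. The 116 contigs summed to 834.4 ± 58.05 CPM in southern1, 808.5 ± 66.87 CPM in southern2 and 846.5 ± 53.0 CPM in southern3 (SD, n = 4 each). These sums lie below every northern2 library and above every northern3 library. Contig by contig, the southern mean lay between northern1 and northern3 in 103 of the 116, above both in 5 and below both in 8. The 39 contigs summed to 541.9 ± 31.34, 555.6 ± 18.56 and 542.8 ± 21.87 CPM in southern1, southern2 and southern3, above every northern1 library and below every northern3 library. Because the contigs were chosen for a wide gap between northern1 and northern3, a group outside the choice tends to fall between them, and these positions are a description.

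In each direction 2 contigs are named for northern1 against northern3. TRINITY_DN68556_c11_g1_i2 was at 11.74, 39.13, 22.91 and 20.12 CPM in the northern1 pools 20 a, 20 b, 24 a and 24 b. In northern2 it was at 1.963, 6.496, 8.446 and 3.946 CPM, and in northern3 at 0.7014, 0.5852, 0.5647 and 0.6323 CPM. The 3 populations did not overlap and formed steps from northern1 down to northern3. The difference northern1 minus northern3 was 5.22 ± 0.62 on the log2 scale (SE, edgeR adjusted p = 0.00117). Northern2 did not reach the threshold against either neighbour, with 2.18 ± 0.51 for northern1 minus northern2 (edgeR adjusted p = 0.378) and 3.04 ± 0.60 for northern2 minus northern3 (edgeR adjusted p = 0.0718). The southern populations were at the level of northern3 or below, with means of 0.317, 0.389 and 0.486 CPM in southern1, southern2 and southern3, so a high level of this contig was seen in northern1 and, less, in northern2.

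TRINITY_DN222700_c2_g4_i2 was at 4.695, 6.071, 7.273 and 5.701 CPM in northern1, at 4.663, 4.786, 6.788 and 5.074 CPM in northern2 and at 0.3507, 1.39, 1.2 and 0.9936 CPM in northern3, in the order of pools given above. Northern1 and northern2 overlapped, and every northern3 library was below both. It was called both for northern1 minus northern3 (2.59 ± 0.32, edgeR adjusted p = 0.00117) and for northern2 minus northern3 (2.43 ± 0.32, edgeR adjusted p = 0.00459), while northern1 minus northern2 was 0.16 ± 0.28 (edgeR adjusted p = 0.923). Its southern means were 2.01, 1.68 and 3.93 CPM in southern1, southern2 and southern3, all above the highest northern3 library. The call for northern2 minus northern3 was lost in the fit on the libraries of both populations alone (edgeR adjusted p = 0.152).

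The contigs named as lower in northern1 showed smaller differences at higher counts. TRINITY_DN69184_c0_g5_i2 was at 25.89, 18.89, 20.92 and 17.97 CPM in northern1, 28.1, 25.85, 28.5 and 31.95 CPM in northern2 and 34.37, 30.43, 30.63 and 33.33 CPM in northern3. The northern1 values lie below all northern3 values and just overlap those of northern2. Northern1 minus northern3 was -0.62 ± 0.11 (edgeR adjusted p = 0.0141).

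TRINITY_DN7965_c0_g1_i1 was at 50.66, 48.71, 53.49 and 48.15 CPM in northern1, 68.41, 62.43, 74.51 and 61.64 CPM in northern2 and 71.89, 64.82, 72.28 and 63.95 CPM in northern3. Here northern1 alone was low, and northern2 and northern3 overlapped. Northern1 minus northern3 was -0.44 ± 0.08 (edgeR adjusted p = 0.0147), and northern1 minus northern2 was -0.41 ± 0.08 without being called (edgeR adjusted p = 0.377). The southern means of 65.5, 67.9 and 62.2 CPM in southern1, southern2 and southern3 were also above every northern1 library. Both contigs lost the call without northern1 24 b (edgeR adjusted p = 0.0559 for the first and 0.0585 for the second) and without northern3 20 a (0.0809 and 0.0929). They also lost it when library totals alone set the scale (0.0548 and 0.111), in the fit on the northern libraries alone (0.105 and 0.134) and in the fit on the libraries of both populations alone (0.117 and 0.127).

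**Figure D3:**
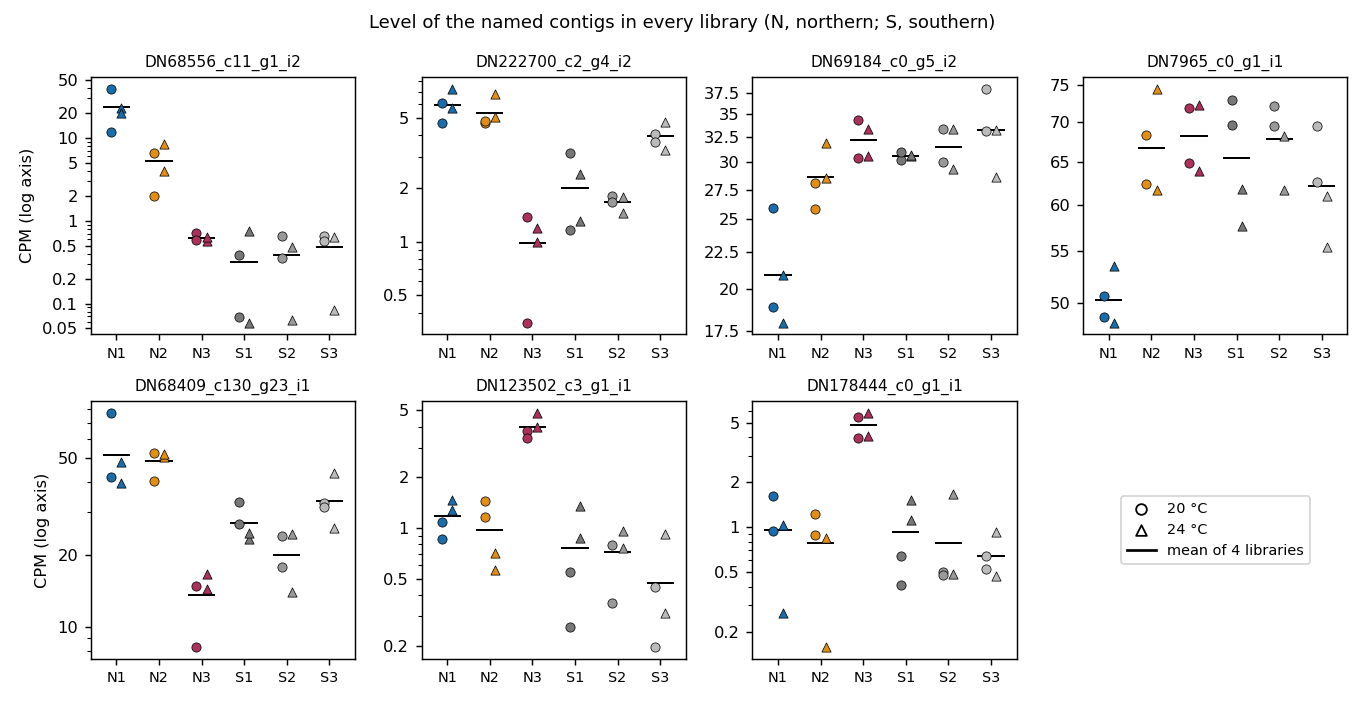
CPM on log axes of the 7 contigs described one by one, in every library of the 6 populations, with circles for 20 °C, triangles for 24 °C and a line at the mean of 4 libraries. The first contig steps down from northern1 to northern3, the second and the fifth are low in northern3, the 2 between them are low in northern1, and the last 2 are high in northern3.

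Between northern2 and northern3, 15 contigs (0.0482%) were higher and 2 (0.00643%) lower in northern2. The 15 differed by a median of 2.23 on the log2 scale (1.03 to 4.49), and 11 differed at least 4-fold. Their summed level was 133.5 ± 24.34 CPM in northern1, 125.1 ± 15.77 CPM in northern2 and 32.83 ± 7.108 CPM in northern3 (SD, n = 4 each). Northern1 entered this comparison only through the shared filter, scaling, spread and temperature effect, and it was at the level of northern2. Its mean was above that of northern2 in 11 of the 15 contigs and between those of northern2 and northern3 in 4. The southern populations were at 66.64 ± 13.94, 53.84 ± 7.355 and 83.01 ± 13.45 CPM in southern1, southern2 and southern3.

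TRINITY_DN68409_c130_g23_i1 was at 41.76, 76.91, 39.59 and 48.42 CPM in northern1, 40.25, 52.38, 50.52 and 51.96 CPM in northern2 and 8.276, 14.85, 16.66 and 14.36 CPM in northern3. All northern3 libraries were well below the other 8, which overlapped between populations. Northern2 minus northern3 was 1.85 ± 0.25 (edgeR adjusted p = 0.00459; 0.054 in the fit on the northern libraries alone).

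The 2 contigs lower in northern2 were too scarce for the naming rule and are given because they are all the calls in that direction. TRINITY_DN178444_c0_g1_i1 was at 1.606, 0.9445, 1.03 and 0.2683 CPM in northern1, at 1.227, 0.8889, 0.1579 and 0.8456 CPM in northern2 and at 5.471, 3.95, 5.788 and 4.065 CPM in northern3. TRINITY_DN123502_c3_g1_i1 was at 0.8649, 1.079, 1.287 and 1.475 CPM in northern1, at 1.166, 1.436, 0.7104 and 0.5638 CPM in northern2 and at 3.787, 3.438, 4.8 and 3.975 CPM in northern3. In both, northern3 was above the other 8 libraries without overlap. Northern2 minus northern3 was -2.70 ± 0.45 for the first (edgeR adjusted p = 0.0176) and -2.01 ± 0.36 for the second (edgeR adjusted p = 0.0274). Northern3 also lay above all 3 southern means, which were 0.927, 0.784 and 0.64 CPM for TRINITY_DN178444_c0_g1_i1 and 0.758, 0.719 and 0.471 CPM for TRINITY_DN123502_c3_g1_i1 in southern1, southern2 and southern3. The first lost its call without northern2 20 b or 24 a and without northern3 20 a or 24 b, and the second without northern2 20 a, 24 a or 24 b and without northern3 20 a, 20 b or 24 b. Both lost it in the fits on the northern libraries alone and on both populations alone, and the second also with temperature left out (edgeR adjusted p of 0.0538 to 0.152 over all these alternatives).

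The count of 17 contigs between northern2 and northern3 was 7 without northern2 24 a, the library that stood apart. It was 32 without northern1 20 b, 6 without northern3 20 a, 47 without northern3 24 a and 7 without northern3 24 b.

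No contig was called between northern1 and northern2 by edgeR or by limma-voom, whereas DESeq2 called 122. At an unadjusted p under 0.05, 2788 contigs (8.97%) passed in edgeR. The libraries of both populations did not overlap in 405 contigs (1.3%) higher in northern1 and 493 (1.59%) lower in northern1. Libraries can also be fully apart by chance in some contigs, so these shares alone do not show a difference. Without northern2 24 a, and likewise without northern1 20 a, 1 contig was called. These counts do not include the contigs left out by the rule on zeros. Of those, 92 were counted in every northern1 library and at 0 in every northern2 and northern3 library. With contigs of this kind kept, calls were also made between northern1 and northern2, as given at the end.

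Some of the contigs called between northern1 and northern3 were related assemblies. Trinity, the assembler named in the identifiers, groups contigs that share sequence into components, and reads can be split among near-identical contigs of a component. The 116 contigs higher in northern1 fell into 88 components, and 57.76% of them lay in components with several tested contigs. This share was 53.85% for the 39 contigs lower in northern1 and 40.09% for all tested contigs. Of the 39 contigs lower in northern1, 4 shared a component with another contig of their set. Of the 116 contigs, 40 did so, in 12 components. Such counts grow with the size of a set, so those of both sets are not compared. In 7 components at least 3 of the 116 were found. These 7 components had 44 tested contigs, of which 30 were called. The difference northern1 minus northern3 was positive in all 44, against 50.7% of all tested contigs. The northern1 libraries lay above all northern3 libraries in 38 of the 44, against 3.99% of all tested contigs. The 7 components were picked for these calls, so their direction is a description. Outside them 86 contigs were called higher in northern1.

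TRINITY_DN222700_c2, with 4 of 4 contigs called, summed to 12.54, 14.57, 14.93 and 12.34 CPM in the northern1 pools 20 a, 20 b, 24 a and 24 b. In northern2 the sum was 11.04, 9.368, 12.08 and 11.74 CPM, and in northern3 it was 1.052, 2.634, 2.329 and 1.355 CPM. The ratio of the northern1 mean to the northern3 mean was 7.38, and it was 2.85 to 7.38 over the 7 components.

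TRINITY_DN68409_c130 was at 153.9 ± 58.4 CPM in northern1, 151.4 ± 28.3 CPM in northern2 and 52.29 ± 17.16 CPM in northern3 (SD, n = 4 each). TRINITY_DN278964_c11 was at 144.3 ± 27.37 CPM in northern1, 82.34 ± 37.73 CPM in northern2 and 39.95 ± 20.07 CPM in northern3. TRINITY_DN121369_c62 was at 83.78 ± 44.58 CPM in northern1, 86.51 ± 19.81 CPM in northern2 and 29.38 ± 10.46 CPM in northern3. In the first and the last of these 3, northern1 and northern2 had the same level within their spread, and 1 northern1 library, 20 b, was highest.

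TRINITY_DN223509_c7 was at 29.58 ± 4.098 CPM in northern1, 23.23 ± 2.537 CPM in northern2 and 7.055 ± 1.69 CPM in northern3. TRINITY_DN68593_c12 was at 22.16 ± 4.484, 18.58 ± 6.398 and 5.372 ± 1.12 CPM, and TRINITY_DN173635_c18 at 15.65 ± 1.857, 10.68 ± 2.122 and 4.992 ± 0.4824 CPM in northern1, northern2 and northern3. In all 7 components the northern3 mean was the lowest of the 6 populations, southern ones included, and the northern1 libraries lay above all northern3 libraries. Northern2 libraries lay above all northern3 libraries in 6 of 7, and overlapped with northern1 in 5. Among all tested contigs, taken singly, northern1 libraries lay above all northern3 libraries in 3.99% and northern2 libraries in 2.25%. The choice of these components favours such an order, so it is a description.

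The southern populations entered the choice of these components only through the shared filter, scaling and estimate of spread. Among them southern3 had the highest mean in all 7. Contig by contig it was highest in 52 of the 116 contigs higher in northern1, and in 34.99% of all tested contigs. Its libraries overlapped with those of southern1 in 6 and with those of southern2 in 6. Of the 44 contigs, 12 had an unadjusted p under 0.05 in the F test among southern populations, a test that 6.83% of all tested contigs passed at that level, and none was called.

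**Figure D4:**
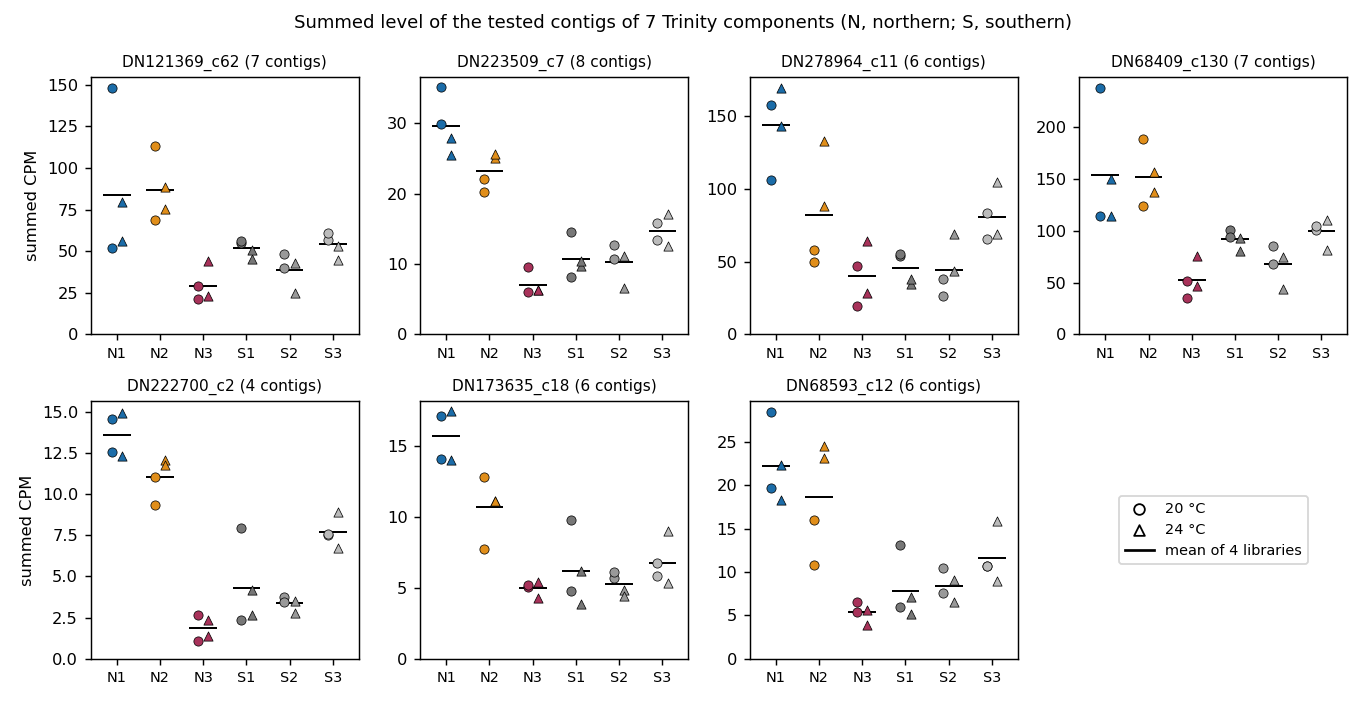
Summed CPM per library of all tested contigs in each of the 7 Trinity components with at least 3 contigs called higher in northern1 than in northern3, with circles for 20 °C, triangles for 24 °C and a line at the mean of 4 libraries. In every panel the northern3 libraries are below the northern1 libraries and their mean is the lowest of the 6.

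Contigs of 1 Trinity gene, a finer grouping that holds putative isoforms, mostly differed in the same direction. The 155 contigs came from 148 Trinity genes, and 38 of them (24.52%) had a tested partner in the same gene, against 23.33% of all tested contigs. The summed partners differed in the same direction in 36 of the 38, in 27 of these by at least 2-fold, and in the other direction in 2. Over all tested contigs with partners, 29.88% had partners that differed in the other direction. With counts summed per Trinity gene before the fit, 150 genes were called between northern1 and northern3.

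The populations were then compared at each temperature on its own, so that the 2 sets of northern larvae share no library. No contig was called by edgeR or limma-voom in the F test at 20 °C or at 24 °C (0% each), while DESeq2 called 248 at 20 °C and 470 at 24 °C; in edgeR 2158 (6.94%) and 3314 (10.7%) had an unadjusted p under 0.05. Calls at 24 °C reached 552 without northern2 24 b, and calls at 20 °C reached 116 without northern1 20 a. Leaving out a pool at 1 temperature leaves its population with 1 library, which is then assumed to vary like the other groups.

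The 100 contigs with the smallest p at 1 temperature were next looked up at the other. For northern1 minus northern3, the 100 chosen at 20 °C had a median log2 difference of 1.02 at 24 °C along the direction seen at 20 °C, with the same sign in 93. Of these, 28 also had an unadjusted p under 0.05 at 24 °C, a level that 8.79% of all tested contigs reached there in either direction. The 100 chosen at 24 °C had 1.03 at 20 °C and the same sign in 87, with such a p in 42, against 8.36% of all tested contigs. Over all tested contigs the sign was the same in 58.14%. For northern2 minus northern3 the medians were 0.50 and 0.58, with the same sign in 73 and 75, against 51.3% of all tested contigs. Such a p was found in 16 of the first at 24 °C, against 7.67% of all tested contigs, and in 28 of the second at 20 °C, against 7.25%. For northern1 minus northern2 they were 0.12 and 0.06, with the same sign in 56 and 55, against 50.18%. Here 6 of the first had such a p at 24 °C, against 11.5%, and 3 of the second at 20 °C, against 4.55%. In these libraries, differences from northern3 found at 1 temperature recurred in part in larvae reared at the other temperature. For northern1 minus northern2 the shares with the same sign were near that of all contigs. Both pairs with northern2 include its pool 24 a, which stood apart, and their look-up was not repeated without it. Contigs of 1 population are not replicates of it, so the contrast between pairs is a description. The counts with a p under 0.05 require the same sign, and the shares of all contigs beside them do not.

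For northern1 minus northern3, the only pair looked up again under alternatives, this recurrence depended on libraries too. Without northern1 20 a the median of 1.02 was 0.26, without northern3 20 a it was 0.59, without northern1 24 b 0.67, and with limma-voom 0.65. The median of 1.03 was 0.63 without northern1 24 a, 0.61 without northern3 24 a, 1.58 in the fit on the northern libraries alone, 1.63 with DESeq2 and 2.64 with contigs at 0 in 10 or more libraries kept. Every one of these medians stayed above 0.

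Over all 31096 contigs, the difference northern1 minus northern3 at 20 °C correlated with that at 24 °C at r = 0.273 (Spearman's rho 0.238). For northern2 minus northern3 the correlation was 0.129 (rho 0.063), and for northern1 minus northern2 it was -0.044 (rho 0.009). These are descriptions across contigs, which are not independent; both temperatures share the populations, the laboratory and the assembly.

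**Figure D5:**
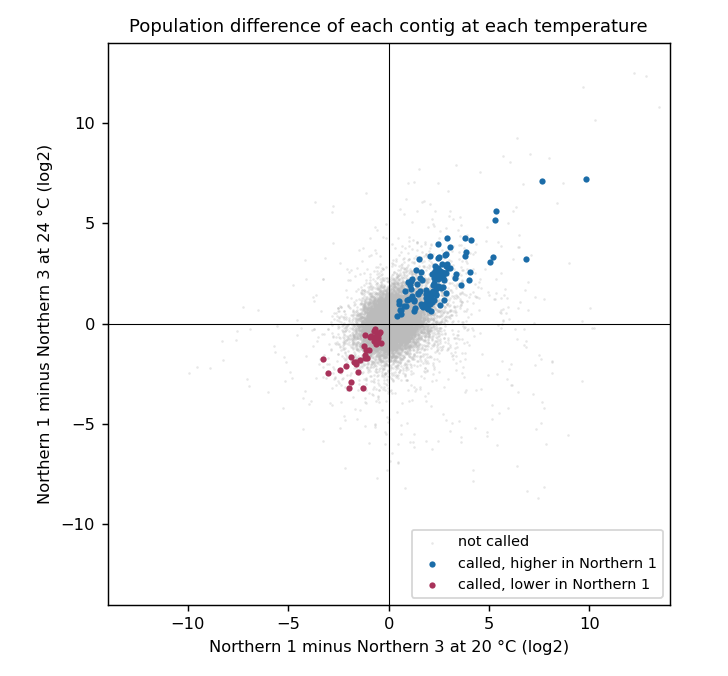
Log2 difference northern1 minus northern3 at 20 °C (horizontal axis) and at 24 °C (vertical axis), 1 point per tested contig, with the 155 contigs called over both temperatures in colour. The called contigs lie in the 2 quadrants where both differences have the same sign, as their choice favours, and the cloud of all contigs is only weakly stretched along the diagonal (r = 0.273).

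The 155 contigs called between northern1 and northern3 had the same sign at both temperatures in all 155, with a median size of 1.96 at 20 °C and 1.75 at 24 °C on the log2 scale; both sets of larvae entered the choice. A test of whether population differences changed with temperature called no contig in edgeR (0%) or limma-voom and 53 in DESeq2, and 2137 contigs (6.87%) had an unadjusted p under 0.05 in edgeR. Among the 155 contigs, 9 (5.81%) had such a p. The test called 133 contigs without northern2 24 b and 18 without northern1 20 a, each with 1 library left in that population and temperature.

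The largest share of a typical contig's variance lay between pools, which also had the most degrees of freedom. Of the variance of log2 CPM over the 12 northern libraries, a median of 17.2% lay between populations (quartiles 7.6 and 30.9%), 7.1% between temperatures, 13.8% in the combination of both and 48.9% between pools of 1 population and temperature. Degrees of freedom were 2 for population, 1 for temperature, 2 for the combination and 6 for pools. Each share also holds noise between pools and grows with its degrees of freedom, so 17.2% is not by itself a population effect. Per degree of freedom, the means were 10.54% for population, 12.78% for temperature, 8.61% for the combination and 8.15% for pools. Population held most of the variance in 2188 contigs (7.04%), temperature in 1079 (3.47%), the combination in 987 (3.17%) and pools in 14927 (48%). These counts depend on the unequal degrees of freedom too. In numbers of calls, 58 contigs were called for population and 155 for the pair northern1 and northern3, against 181 (0.582%) for warming in the northern larvae.

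Against the 58 contigs called among northern populations, the same F test called 1 contig (0.00322%) among southern populations. At an unadjusted p under 0.05, 3913 contigs (12.6%) passed among northern and 2123 (6.83%) among southern populations. The difference between latitudes in these counts was not tested. The southern call, TRINITY_DN76716_c0_g1_i1, was at 4.34, 1.681, 2.111 and 4.877 CPM in southern1, against 0.455 ± 0.176 CPM in southern2 and 0.639 ± 0.279 CPM in southern3 (SD, n = 4 each; edgeR adjusted p = 0.0215). In northern larvae it averaged 0.715, 1.04 and 0.383 CPM in northern1, northern2 and northern3 and was not called (edgeR adjusted p = 0.30). The southern test called no contig with limma-voom, with temperature left out, with 1 mean per population and temperature, without southern1 20 a, southern1 24 b or southern2 20 b, or without any 1 northern population. Other alternatives raised the southern count, up to 5 with 1 southern library left out. It rose further with DESeq2 and with the contigs left out by the rule on zeros kept, which both raised the northern count too. The share of variance between populations, which includes noise between pools, had a median of 17.2% in southern libraries as well.

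The contigs called among northern populations were also looked up in the F test among southern populations. Of the 58 contigs, 16 (27.59%) had an unadjusted p under 0.05 among southern populations, as did 31 (20%) of the 155 called between northern1 and northern3, against 6.83% of all tested contigs. None was called. The southern range between population means had a median of 0.54 on the log2 scale in the 58 contigs and 0.32 over all tested contigs. The 2 tests use different libraries but 1 estimate of spread per contig, and components with several contigs are counted more than once.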

How the data were processed

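The authors deposited raw read counts per Trinity contig for 24 libraries. Subread 1.5.1, featureCounts, Trimmomatic 0.36 and FastQC 0.11.5 appear in the submitters' processing notes. The roles of these tools, the assembly, and multimapping and strand settings are not stated there. Near-identical contigs could share or lose reads. No identifier matched the RefSeq gene table (0 of 34095), so no sequence or gene name is given.

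In R 4.3.3, edgeR 4.0.16 was run with TMM factors on contigs that passed filterByExpr over latitude and temperature (minimum count 10, minimum total 15), which kept 31287, less 191 at 0 in 10 or more libraries. Tested contigs held 98.57 to 99.89% of counts. Robust quasi-likelihood F tests used all 24 libraries, with 1 intercept per population and 1 temperature effect per latitude. Pairwise tests contrasted intercepts, and the temperature-dependence test used 1 mean per population and temperature. Benjamini-Hochberg adjustment ran over all tested contigs. SEs are those implied by the F statistics. Log2 CPM used a prior count of 2. DESeq2 1.42.0, limma 3.58.1 (voom), other scalings, filters, models and left-out libraries were alternatives. Chi-square per degree of freedom was 11.7 to 61.48 between both pools of a population and temperature, so every library was counted as 1 sample.

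Contigs were named if they passed the F test and the pairwise test, had a mean log2 CPM of at least 1 over the northern libraries and did not overlap, then by the 2 smallest p in each direction. Populations, contigs and rules were chosen with earlier results of these data known.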

Additional observations from a re-analysis of the deposited data

Results flagged for a closer look

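Among 54 groups of 4 libraries examined, 2 held a library far from the other 3, where chance gives about 1 in 20. TRINITY_DN68409_c130_g23_i1 was at 40.25 CPM in northern2 20 a, away from the other 3 northern2 libraries, which lay between 50.52 and 52.38 CPM. The summed level of component TRINITY_DN223509_c7 was 9.583 CPM in northern3 20 b, against 6.032 to 6.323 CPM in the other northern3 libraries.

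A signal was seen in the 191 contigs that the rule on zeros left out. Of these, 92 were counted in all 4 northern1 libraries and had a count of 0 in all 8 libraries of northern2 and northern3. The 191 contigs summed to 5226 to 8902 counts in northern1, 987 to 2634 in northern2 and 1008 to 1311 in northern3; 2 southern2 libraries, at 24 °C, had 5384 and 11195. More than 90% of the northern counts lay in northern1 for 109 contigs, in northern2 for 2 and in northern3 for 2. With contigs of this kind kept in the fit, 60 contigs were called between northern1 and northern2.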

How the results depend on the processing

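No named contig reversed its direction under any alternative run. For the F test, the pairs northern1 minus northern3, northern1 minus northern2 and northern2 minus northern3, and the southern F test, in this order, the counts were 58, 155, 0, 17 and 1 as reported. DESeq2 gave 543, 671, 122, 281 and 103. Contigs at 0 in 10 or more libraries, when kept, gave 217, 312, 60, 17 and 34, and 7 at 24 °C alone. Libraries of the latitude alone gave 11, 33, 0, 5 and 2, with 2 at 20 °C and 1 at 24 °C; libraries of both populations alone gave 88 and 3 for the 2 pairs with northern3. Limma-voom gave 45, 81, 0, 10 and 0. A mean log2 CPM of at least 1 gave 36 and, for the southern test, 0. Leaving temperature out gave 26 for northern2 minus northern3 and 0 for the southern test; 1 mean per population and temperature also gave 0 there, and library totals 2. No filter on low counts gave 2 and a fit that was not robust 1 at 20 °C alone. Without southern1, southern2 or southern3 the F test called 32, 28 and 32; without any 1 northern population the southern test called 0. With the pool letter as a replicate block the counts were 41, 128, 0, 19 and 2. Same-letter pools correlated at -0.163 to 0.157 after their group means were removed. These low correlations cannot exclude a step shared by some pools of 1 letter.

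Leaving out 1 northern library gave 9 to 165 calls in the F test, 22 to 500 for northern1 minus northern3, 0 to 1 for northern1 minus northern2 and 6 to 47 for northern2 minus northern3; a southern one gave 38 to 53, 117 to 138, 0 and 17 to 21. The temperature dependence test called 0 to 133, the F test at 20 °C 0 to 116 and at 24 °C 0 to 552, and the southern test 0 to 5. DESeq2 called 53 for temperature dependence, 248 at 20 °C alone and 470 at 24 °C alone. Over a left-out library, another scaling or another prior count, the median share of variance was 16.3 to 20.7% for population, 6.7 to 8.4% for temperature, 13.7 to 17.8% for their combination and 39.1 to 49% for pools. The causes were not tested. The 4 libraries per population, with pools of 3 larvae, limit which differences could be called.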
